A study of Mus musculus with 4 samples.

Results

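Contractile fibroblasts are collagen-producing cells that also carry a smooth-muscle-type actin machinery. In the pancreatic tumours studied here they were taken as the cells with high counts of Acta2, which encodes smooth muscle alpha-actin, and of Tagln, which encodes the actin-binding protein transgelin. A cell was a member if Col1a1 and Col3a1, the main fibrillar collagen genes, together made up at least 80 per 10000 of its unique molecular identifiers (UMIs, each standing for 1 captured RNA molecule), if Acta2 and Tagln together made up at least 20 per 10000, and if it held fewer than 3 UMIs of the cycling genes Mki67, Top2a, Birc5 and Ube2c. The rule was met by 106 of 6020 cells, which are 13.6% of the 779 cells that reached the collagen threshold. The other 673 collagen-positive cells are the reference throughout. The members were thus chosen by measured values, and the levels of the genes in the rule are given as a description only.

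The cells come from 4 droplet libraries. KPC cells, lines of a mouse model of pancreatic ductal adenocarcinoma, were implanted into the pancreas of untreated C57BL/6J animals, and the tumours were taken on day 13. Each of the lines KPC-4545 and KPC-3403 gave 1 enriched library, made from cells sorted for the absence of the leukocyte, endothelial, epithelial and erythroid surface proteins CD45, CD31, EPCAM and TER119, and 1 whole library, made from the unsorted suspension. No surface marker of fibroblasts was used, so the enriched preparation holds whatever else lacks those antigens. Nothing in the labels ties a library to an animal or says whether tumours were pooled. For the shares, the spread behind each p-value is therefore that between these libraries. For genes, it is the spread over libraries of the difference between 2 sets of cells, estimated with information from other genes. Both may be technical.

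Myofibroblasts, as contractile fibroblasts are also called, arise in wounds and in tumour stroma, where transforming growth factor beta and tension on the matrix lead to actin stress fibres. Many genes of these fibres are switched on by serum response factor (SRF) with its actin-sensing partners of the myocardin family, through a short promoter element known as the CArG box. In pancreatic tumours such cells are known as myofibroblastic cancer-associated fibroblasts, and they are set against inflammatory ones that secrete cytokines and against fibroblasts of a general type marked by genes such as Pi16, Dpt and Clec3b.

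Promoter sequences show where this element stands in the genes that set the cells apart. RefSeq promoters (GRCm38.p6, 250 bases before to 50 after the gene start) were available for 24 of 27 genes, namely Acta2, Tagln and a list of 25 genes of the contractile apparatus; Tagln, Actb and Csrp2 were not in the table. An exact CArG box, read on both strands, stood in 5 of the 24 (20.8%; Myl9, Myl6, Cnn2, Actg1 and Vcl), against 488 of 27025 genes in the whole table (1.81%). Acta2 held no exact box but 2 boxes with 1 inner base other than A or T, a form found in 8 of the 24 (33.3%, exact boxes included) and in 3050 of all 27025 genes (11.3%). The 250 bases before the start are shown for Acta2, the gene of the rule, and for 3 genes with an exact box whose RNA was higher in the contractile cells. Capitals mark the exact boxes of Myl9, Cnn2 and Actg1 and the near boxes of Acta2. The match of letters describes the sequence and says nothing of binding.
Acta2 (chr19:34255374-34255623, minus strand): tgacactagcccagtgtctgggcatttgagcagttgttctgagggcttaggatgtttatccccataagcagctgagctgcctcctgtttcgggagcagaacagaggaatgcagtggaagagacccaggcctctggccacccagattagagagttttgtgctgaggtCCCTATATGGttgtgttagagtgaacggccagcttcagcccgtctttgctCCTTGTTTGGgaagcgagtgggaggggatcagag
Myl9 (chr2:156775214-156775463, plus strand): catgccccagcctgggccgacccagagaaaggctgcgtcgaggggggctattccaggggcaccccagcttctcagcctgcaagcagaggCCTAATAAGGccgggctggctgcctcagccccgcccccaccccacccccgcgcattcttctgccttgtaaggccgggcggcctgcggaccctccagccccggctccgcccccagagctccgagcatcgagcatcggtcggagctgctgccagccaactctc
Cnn2 (chr10:79988350-79988599, plus strand): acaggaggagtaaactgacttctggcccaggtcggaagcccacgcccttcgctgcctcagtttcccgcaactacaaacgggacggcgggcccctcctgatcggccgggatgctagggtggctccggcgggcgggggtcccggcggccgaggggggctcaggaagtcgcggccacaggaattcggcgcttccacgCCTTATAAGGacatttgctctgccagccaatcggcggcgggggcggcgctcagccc
Actg1 (chr11:120348496-120348745, minus strand): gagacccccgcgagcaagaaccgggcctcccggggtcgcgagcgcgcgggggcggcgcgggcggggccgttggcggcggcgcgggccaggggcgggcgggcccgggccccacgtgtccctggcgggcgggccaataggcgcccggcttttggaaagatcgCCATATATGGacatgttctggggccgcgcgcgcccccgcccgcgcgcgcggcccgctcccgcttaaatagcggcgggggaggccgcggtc
The boxes begin 84 and 34 bases before the start of Acta2, 161 bases before Myl9, 56 before Cnn2 and 90 before Actg1.

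The libraries differed widely in what they hold of these cells. The filtered cells numbered 1692 in the enriched KPC-4545, 2575 in the enriched KPC-3403, 536 in the whole KPC-4545 and 1217 in the whole KPC-3403 library, from 47207893, 51450719, 5746733 and 13990046 UMIs in the same order. The enriched KPC-3403 library gave 93 of the 106 contractile cells (87.7%), so that every level over single cells rests mainly on it. Contractile cells were deeper than the other collagen-positive cells of their library, with medians of 4895 against 4169 UMIs (enriched KPC-4545), 18525 against 13454 (enriched KPC-3403), 29276 against 15412.5 (whole KPC-4545) and 23083 against 8901 (whole KPC-3403). Cells of at least 2000 UMIs were therefore also thinned to 2000 UMIs each, and the rule was applied again to the thinned counts. The contractile gene list below is given at that depth too.

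Some barcodes occur in more than 1 library. The enriched KPC-4545 and the whole KPC-3403 library shared 139 cell barcodes, where the other pairs shared 6 to 11. In 130 of the 139 the whole KPC-3403 cell had at least 10-fold more UMIs, with medians of 785 UMIs in the enriched KPC-4545 and 29006 in the whole KPC-3403 library. Of the 7 contractile cells of the enriched KPC-4545 library, 3 had such a deeper namesake. These 3 cells held 577 to 1337 UMIs, which is 3.89% of the library's contractile UMIs, and the other 4 held 4895 to 22328. Results are given with all cells and, where it matters, without these barcodes.

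Contractile cells made up a like share of the collagen-positive cells in all 4 libraries. There were 7 of 60 such cells in the enriched KPC-4545 library (11.7%, exact Clopper-Pearson 95% interval 4.82 to 22.6), 93 of 678 in the enriched KPC-3403 (13.7%, 11.2 to 16.5), 1 of 7 in the whole KPC-4545 (14.3%, 0.361 to 57.9) and 5 of 34 in the whole KPC-3403 library (14.7%, 4.95 to 31.1). Both enriched libraries lay below both whole libraries, but every interval holds the other 3 shares, and these intervals hold only the error of counting cells. The mean share was 12.7% ± 1.45 in enriched and 14.5% ± 0.297 in whole libraries (SD, n = 2 each), a difference of -1.80 percentage points (two-sided exact permutation p = 0.33, the smallest that 2 libraries against 2 allow). Within a line the enriched minus whole difference averaged -1.80 points, the same by arithmetic (exact sign-flip p = 0.5, the smallest that 2 pairs allow). Without the shared barcodes the enriched KPC-4545 share was 4 of 48 (8.33%, 2.32 to 20.0) and the difference -3.46 points. With Acta2 and Tagln at 40 or more per 10000 the sign turned, to 3.54 points.

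Of all filtered cells, contractile cells were 0.414% in the enriched KPC-4545, 3.61% in the enriched KPC-3403, 0.187% in the whole KPC-4545 and 0.411% in the whole KPC-3403 library. The mean difference of 1.71 percentage points (exact permutation p = 0.33, n = 2 each) came down to 0.115 without the enriched KPC-3403 library. The share was higher in the enriched than in the whole library of both lines, and the exact 95% intervals of the KPC-4545 pair, 0.166 to 0.851 (enriched) and 0.00472 to 1.04 (whole), overlap.

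**Figure D1:**
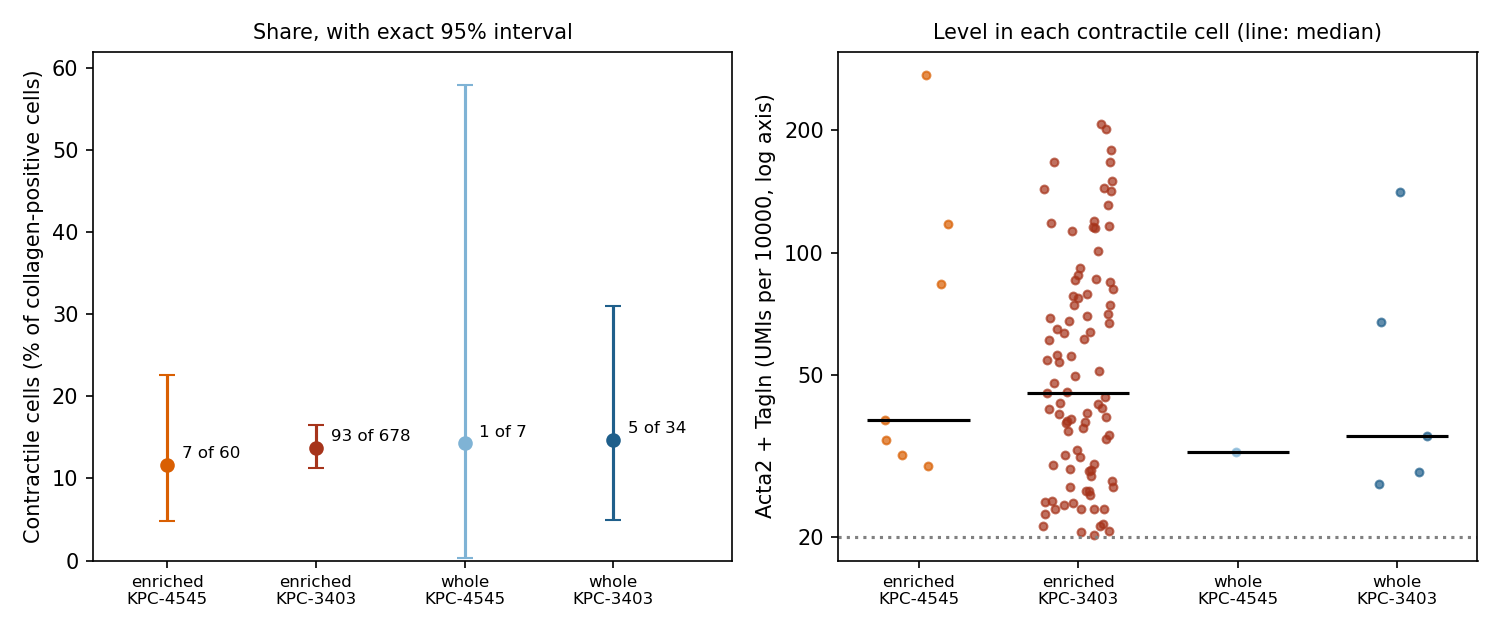
Left: contractile cells as a percentage of collagen-positive cells in each library, with exact 95% intervals and cell numbers. Right: summed Acta2 and Tagln level of each of the 106 contractile cells in UMIs per 10000 on a log axis, with the median as a line and the rule's threshold of 20 dotted; levels run from 20.3 to 207 in the enriched KPC-3403 library.

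The level of the defining genes varied widely among members. Acta2 had 77.0 (enriched KPC-4545), 30.2 (enriched KPC-3403), 13.7 (whole KPC-4545) and 15.4 (whole KPC-3403) UMIs per 10000 of all the members' UMIs, against 1.85, 4.56, 0 and 2.18 in the other collagen-positive cells, and Tagln had 72.4, 34.0, 18.8 and 35.5 against 3.25, 3.94, 0 and 2.90. In the enriched KPC-3403 library summed Acta2 and Tagln ran from 20.3 to 207 UMIs per 10000, with a median of 45.2 and quartiles of 29.3 and 79.1. The 7 cells of the enriched KPC-4545 library spanned 29.9 to 274 with a median of 38.8, the 5 cells of the whole KPC-3403 library 27.0 to 141 with a median of 35.4, and the only cell of the whole KPC-4545 library stood at 32.4. The ranges of the 3 libraries with several cells overlap almost wholly. Members held 57.1% of the Acta2 UMIs and 63.4% of the Tagln UMIs of all collagen-positive cells in the enriched KPC-3403 library, with 16.7% of those cells' UMIs in all.

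The threshold of 20 divides a continuous range. In the enriched KPC-3403 library 15 members lay just inside it, at 20 to 25 per 10000, with 9.02 Acta2 and 14 Tagln UMIs per 10000, and 12 cells lay just outside, at 15 to 20, with 9.55 and 8.39. Of the further markers of the name, Thbs2, Cthrc1 and Col12a1 stood at 6.85, 8.0 and 6.97 per 10000 just inside and higher just outside, at 9.67, 14.7 and 11.6. Tnc was near equal, at 6.51 inside and 6.75 outside, and Sfrp1 was higher inside, at 10.8 against 4.68. A further 24 cycling cells of this library and 1 of the enriched KPC-4545 library reached the Acta2 and Tagln level and were left to the reference by the rule. The 24 had 40.6 Acta2 and 38.2 Tagln UMIs per 10000, above the members' 30.2 and 34.0. In the enriched KPC-3403 library 93 of 607 cells (15.3%) reached the threshold among non-cycling cells with collagen at 80 or more, against 16 of 408 (3.92%) at 40 to 80, 10 of 321 (3.12%) at 20 to 40 and 8 of 865 (0.925%) below 20. The whole KPC-3403 library did not show this order, with 5 of 31 cells (16.1%, 95% interval 5.45 to 33.7) at 80 or more, 3 of 12 (25%, 5.49 to 57.2) at 40 to 80, 3 of 10 (30%, 6.67 to 65.2) at 20 to 40 and 0 of 968 below 20, so that more of its cells at the Acta2 and Tagln level lay under the collagen threshold than above it.

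Free RNA held some of both gene pairs. In barcodes of at most 100 UMIs, Acta2 and Tagln together stood at 1.61 (enriched KPC-4545), 7.99 (enriched KPC-3403), 1.08 (whole KPC-4545) and 5.62 (whole KPC-3403) per 10000 UMIs, all below the threshold of 20. Cells below the collagen threshold with a UMI of the B cell gene Cd79a or the T cell gene Cd3e, which should not make these actin genes, held an Acta2 or Tagln UMI in 1 of 5, 2 of 13, 0 of 303 and 16 of 319 cases in the same order, and none reached 20 per 10000. Their median depths were 2705, 20581, 3343 and 3698 UMIs. In shallow cells few UMIs reach the threshold. Of the 7 members of the enriched KPC-4545 library, 2 held 3 or fewer Acta2 and Tagln UMIs, and the part of free RNA in them was not tested.

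The name was checked against the other markers given for it, with no test because these markers were named together with the rule. Tnc, which encodes the matrix protein tenascin C, had 8.57 (enriched KPC-4545), 4.11 (enriched KPC-3403), 9.22 (whole KPC-4545) and 5.78 (whole KPC-3403) UMIs per 10000 in contractile cells, against 2.32, 2.39, 0 and 1.39 in the other cells in the same order. Every contractile sum was above every reference sum. Col12a1, a collagen that decorates fibrils, had 11.3, 4.48, 5.46 and 9.27 per 10000 in contractile cells, against 6.85, 2.32, 1.3 and 2.78 in the others, higher within each library. Sfrp1, which encodes a secreted binder of Wnt ligands, had 11.8, 9.81, 19.8 and 9.34 in contractile cells, against 6.08, 3.53, 2.70 and 7.94 in the others, again higher within each library.

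The remaining markers separated the cells less. Thbs2, which encodes thrombospondin 2, had 2.60, 4.48, 4.78 and 7.04 per 10000 in contractile cells, against 2.78, 2.78, 0.324 and 2.36 in the others, and was not higher in the enriched KPC-4545 library. Cthrc1, a secreted protein of activated fibroblasts, had 2.60, 8.13, 4.78 and 2.86 in contractile cells, against 2.19, 6.30, 0 and 3.52 in the others. It differed little in the 3 libraries with several contractile cells and went against the name in the whole KPC-3403 library. Over single cells of the enriched KPC-3403 library Cthrc1 was at 0 in 33 of 93 members and reached 76.1, so it was detected in a part of them.

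The contractile cells had genes common to fibroblasts and little of the genes that define other stromal cell types. Col1a2 stood at 67.8 per 10000 in members and 69.0 in the other collagen-positive cells of the enriched KPC-3403 library, and the receptor genes Pdgfra and Pdgfrb at 1.05 and 1.02, against 2.81 and 0.929. The 7 fibroblast genes together were lower in members in 3 libraries, at 104 against 136 in the enriched KPC-4545, 106 against 142 in the enriched and 98.6 against 147 in the whole KPC-3403 library, and higher in the single cell of the whole KPC-4545 library, at 196 against 140. Of the 9 pericyte genes 8 had a UMI in members of the enriched KPC-3403 library, and Higd1b was at 0 in members and others. The defining gene Rgs5 stood at 0.0117 per 10000, against 0.00118 in the others there. Notch3 (0.0763 against 0.0224), Cox4i2 (0.0763 against 0.0177), Mcam (0.0352 against 0.0118), Cspg4 (0.0880 against 0.0589) and Abcc9 (0.0763 against 0.0637) were higher in members. Kcnj8 was lower, at 0.176 against 0.238. Summed, the pericyte list stood at 0.612, 2.89, 2.39 and 5.23 per 10000 in contractile cells, with the libraries in the order used for Tnc above, against 1.08, 1.28, 2.38 and 2.24, and in the enriched KPC-3403 library 2.35 of the 2.89 was Ndufa4l2, a hypoxia-responsive gene that is also in the hypoxia list.

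Smooth muscle genes moved with the contractile cells at a low level. The list of 8 summed to 4.13, 3.42, 2.73 and 2.79 per 10000 in contractile cells, against 1.11, 1.24, 1.94 and 0.977 in the others. In the enriched KPC-3403 library most of this was Des, the intermediate filament gene desmin, at 2.11 against 0.712, and Smtn at 0.645 against 0.430, while Myocd and Casq2 were at 0 in members, the smooth muscle myosin gene Myh11 stood at 0.123 against 0.0141, and the enteric actin gene Actg2 at 0.522 against 0.0578. In the test across all genes described next, Des (1.64 ± 0.39 on the log2 scale) and Actg2 (3.43 ± 0.64) passed (edgeR adjusted p = 0.039 and 0.018), although Des was not higher in the enriched KPC-4545 library (0.153 against 0.394) nor Actg2 in the whole KPC-3403 library (0.0697 against 0.0771). The part of smooth muscle cells in the results was not tested. Mesothelial genes were lower in members, at 1.66 against 3.69 in that library, with all 8 detected, Wt1 at 0.857 against 1.24 and Msln at 0.0352 against 0.0754. Epithelial genes summed to 0 to 0.487 in members of the 4 libraries and 0.394 to 1.62 in the others, endothelial genes to 0 to 1.05 and 0.205 to 1.08, and immune genes to 0 to 0.342 and 0 to 0.216. Ptprc, Cd3e and Cd79a (leukocytes), Cdh1 (epithelium), Cdh5 and Vwf (endothelium) and all 4 Schwann cell genes were at 0 in members of the enriched KPC-3403 library.

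Differences between contractile and other collagen-positive cells were tested on UMI counts summed per library, with edgeR's quasi-likelihood test, the library as a block and Benjamini-Hochberg adjustment over all genes. The 3 libraries with at least 4 cells in both sets entered, which leaves 2 residual degrees of freedom, and the single cell of the whole KPC-4545 library did not. Of 5519 genes that could be called, 73 were higher in contractile cells (1.32%) and 158 were lower (2.86%), 4.19% in all, at an adjusted p of at most 0.05. The median log2 difference of all genes was -0.00115. Since the cells were parted by Acta2 and Tagln, genes that vary with these from cell to cell must differ between the sets, and the fit asks only whether a difference repeats over libraries. Without the shared barcodes 63 genes were higher and 149 lower, and 212 of the 231 calls were among them. Without the enriched KPC-3403 library, which holds most cells, 25 were higher and 60 lower, and 64 of the 231 calls were kept. Without the enriched KPC-4545 library 114 were higher and 239 lower, and without the whole KPC-3403 library 68 and 206.

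Genes of the contractile apparatus were higher in contractile cells or did not pass. Of its 25 genes, none of them in the rule, 23 were tested, 13 were higher and none was lower, and all 23 had a fitted difference above 0, with a median of 0.85 on the log2 scale. Of all genes tested 1.32% were higher, and nothing is read from the contrast of these shares, because the rule itself used this comparison. The 13 were Cnn1, Myl9, Cnn2, Tpm2, Palld, Flna, Tpm1, Actn1, Actg1, Cnn3, Myl6, Cald1 and Actb. All 13 were also called without the shared barcodes, 12 without the enriched KPC-4545, 11 without the whole KPC-3403 and 7 without the enriched KPC-3403 library. With every cell thinned to 2000 UMIs, 9 of 21 tested were higher and none lower, with a median of 0.80. With the collagen threshold at 160 it was 7 of 24 (median 1.01), and without the library as replicate block 4 of 23 (median 0.91). Reads of the near-identical actin genes may have been split between them by the counting, so Actg1 and Actb are less certain.

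Within this list Cnn1, Myl9, Cnn2 and Tpm2 had the largest differences among those that passed. Cnn1, which encodes calponin 1, a regulator of actomyosin (mm10, chromosome 9, 22099216 to 22109630, plus strand), had 1.38 (enriched KPC-4545), 0.886 (enriched KPC-3403), 0 (whole KPC-4545) and 0.697 (whole KPC-3403) UMIs per 10000 in contractile cells, against 0, 0.133, 0 and 0 in the others. Members of the enriched KPC-3403 library held 151 Cnn1 UMIs, and its other cells held 113, with 557 of these 585 cells at 0. No Cnn1 UMI was seen in the other reference sums, where a count of 3 UMIs would have given 0.0739 (enriched KPC-4545), 0.324 (whole KPC-4545) and 0.0771 (whole KPC-3403) per 10000. The fitted log2 difference was 3.22 ± 0.53 (SE, edgeR adjusted p = 0.013, higher in 3 of 3 libraries), a value that depends on the prior count because of the sums at 0, and within the enriched KPC-3403 library it was 2.68. Single members differed in it: Cnn1 was at 0 in 56 of 93 and reached 9.32.

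Myl9, which encodes a regulatory light chain of smooth muscle and nonmuscle myosin (chromosome 2, 156775420 to 156781658, plus strand), had 7.19, 2.79, 2.39 and 2.51 per 10000 in contractile cells, against 0.887, 0.633, 0 and 0.617 in the others, in the same order of libraries. The groups did not overlap, and the difference was 2.36 ± 0.24 (SE, edgeR adjusted p = 0.00018). Cnn2, the calponin of nonmuscle cells, had 11.5, 4.83, 5.12 and 3.0 in contractile cells, against 2.12, 1.48, 0.756 and 1.08, with a difference of 1.87 ± 0.23 (edgeR adjusted p = 0.00048). Tpm2, a tropomyosin that lies along the actin filament, had 7.19, 6.47, 3.07 and 5.78 in contractile cells, against 1.16, 2.32, 1.84 and 2.42, with a difference of 1.72 ± 0.25 (edgeR adjusted p = 0.0016). The groups did not overlap for Cnn2 or Tpm2 either. Of these, Myl9 and Cnn2 carry the exact boxes printed above.

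Further filament and adhesion genes moved by less. The crosslinkers Palld (palladin), Flna (filamin A) and Actn1 (alpha-actinin 1) differed by 1.41 ± 0.20, 1.28 ± 0.23 and 1.18 ± 0.24 (log2, SE; edgeR adjusted p = 0.0013, 0.0062 and 0.015), and the abundant actins Actg1 and Actb by 0.98 ± 0.17 and 0.72 ± 0.15 (edgeR adjusted p = 0.0066 and 0.017). Actg1 had 60.5, 46.2, 28.7 and 34.9 per 10000 in contractile cells, against 20.8, 27.7, 21.6 and 21.8 in the others, with no overlap. Among the 10 tested members that did not pass, the differences ran from 0.42 ± 0.22 for the integrin gene Itga5 to 1.73 ± 0.51 for Csrp1 (edgeR adjusted p = 0.44 and 0.20). The genes of the regulators themselves gave no call: of 8, Wwtr1, Mrtfa, Yap1 and Tead1 were tested, with differences from -0.15 to 0.30 and a median of 0.17, and Srf, Myocd, Mrtfb and Tead4 were too low to test.

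Nexn, the actin-filament protein nexilin, is in no list but was among the 12 largest rises of the fit. It had 0.306, 0.299, 0.342 and 0.418 per 10000 in contractile cells, against 0.0739, 0.0471, 0.108 and 0.0257, a difference of 2.72 ± 0.51 (edgeR adjusted p = 0.0087, higher in 3 of 3 libraries), and too low to test without the enriched KPC-3403 library. Rises outside the lists among the 12 also included Serinc2 (2.28), Pstpip1 (2.22), Hs6st2 (2.07), Cpxm2 (1.82) and Ddah1 (1.77). Serinc2, Pstpip1 and Hs6st2 were too low to test without the enriched KPC-3403 library.

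**Figure D2:**
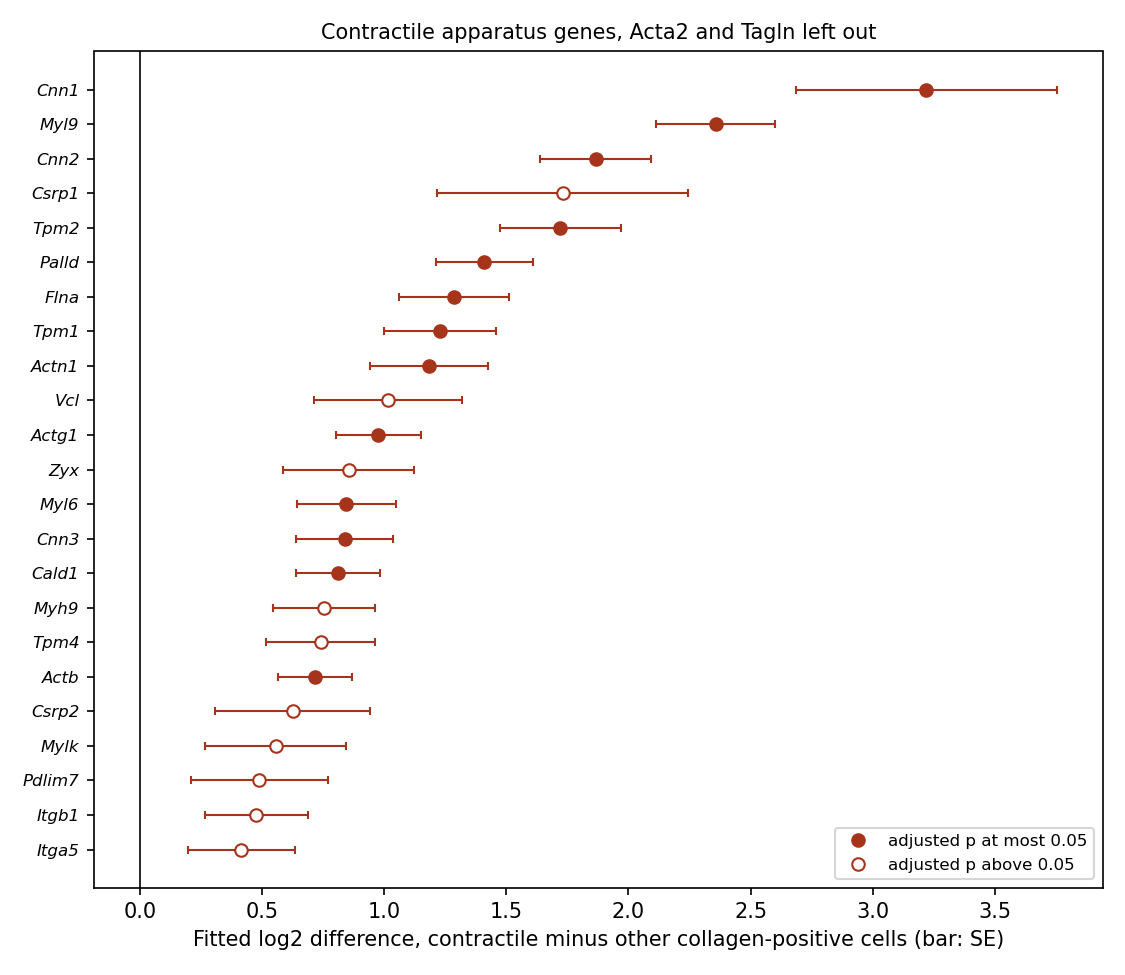
Fitted log2 difference, contractile minus other collagen-positive cells, for the 23 tested genes of the contractile apparatus, with standard errors. Filled points passed an adjusted p of 0.05; all 23 lie above 0, from 0.42 (Itga5) to 3.22 (Cnn1).

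Genes of transforming growth factor beta, the cytokine best known for driving this state, changed in both directions. Of 18, 17 were tested, 3 were higher (Ltbp2, Tgfb1 and Tgfb3), 3 lower (Tgfbr3, Ltbp1 and Tgfbr2), and the median was -0.02, where 1.32% of all genes were higher and 2.86% lower. All 6 were called without the shared barcodes, 6 without the enriched KPC-4545, 3 without the whole KPC-3403 and 1, Ltbp2, without the enriched KPC-3403 library. Ltbp2, a microfibril protein of the latent TGF-beta binding family (chromosome 12, 84783212 to 84876532, minus strand), had 2.60 (enriched KPC-4545), 1.65 (enriched KPC-3403), 1.71 (whole KPC-4545) and 1.81 (whole KPC-3403) per 10000 in contractile cells, against 0.222, 0.282, 0.108 and 0.103 in the others. The groups lay far apart, with a difference of 2.97 ± 0.31 (edgeR adjusted p = 0.00018).

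The ligand genes Tgfb1 and Tgfb3 rose and the receptor genes Tgfbr2 and Tgfbr3 fell, while Tgfb2 and Tgfbr1 were tested and not called. Tgfb1, Tgfb3 and Tgfbr2 lost their calls without the enriched or without the whole KPC-3403 library, and Tgfbr3 without the enriched KPC-3403 library. Tgfb1 had 1.84, 1.27, 0 and 2.65 in contractile cells, against 0.665, 0.598, 0.216 and 0.874, a difference of 1.32 ± 0.24 (edgeR adjusted p = 0.0081), and Tgfb3 differed by 1.24 ± 0.27 (edgeR adjusted p = 0.020). The single whole KPC-4545 cell, outside the fit, held no Tgfb1 UMI, where 3 UMIs would have been 1.02 per 10000. Tgfbr2, the signalling type II receptor, differed by -1.16 ± 0.24, and Tgfbr3, the co-receptor betaglycan, by -1.81 ± 0.30 (edgeR adjusted p = 0.016 and 0.0041). The target gene Smad7, a feedback inhibitor, did not pass, at -0.82 ± 0.26 (edgeR adjusted p = 0.10). Of the Wnt modulators 7 of 12 were tested and none was called, with a median of 0.53. Sfrp4 had 0, 0.675, 0 and 0 per 10000 in contractile cells, against 17.1, 6.02, 0.324 and 0.848 in the others, and Sfrp2 had 0.153, 5.75, 0 and 0.557 against 7.02, 16.1, 1.51 and 6.55 (edgeR adjusted p = 0.087 and 0.17).

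Few matrix genes passed the test. Of 18 further collagen genes 15 were tested, 1 was higher (Col8a2) and 2 were lower (Col14a1 and Col18a1), with a median of -0.22. Over all genes tested, 1.32% were higher and 2.86% lower. Col14a1, a fibril-associated collagen, had 0.459, 0.874, 0.683 and 0.557 per 10000 in contractile cells, against 5.03, 3.30, 2.81 and 3.31 in the others. The groups did not overlap, and the difference was -2.32 ± 0.28 (edgeR adjusted p = 0.00048). Col8a2 (1.57 ± 0.41) and Col18a1 (-1.47 ± 0.37) passed narrowly (edgeR adjusted p = 0.048 and 0.041). Neither was called without the shared barcodes, or high enough to test without the enriched KPC-3403 library. Within the enriched KPC-4545 library Col8a2 had a log2 difference of -0.04. None of the 14 genes of collagen maturation passed, with differences from -0.51 (Pcolce) to 0.46 (Loxl3), Serpinh1 at 0.27, P4hb at 0.39 and a median of 0.23.

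Small proteoglycans changed in both directions. Dcn, decorin, had 9.03 (enriched KPC-4545), 28.5 (enriched KPC-3403), 28.4 (whole KPC-4545) and 10.7 (whole KPC-3403) per 10000 in contractile cells, against 55.5, 56.5, 64.2 and 39.6 in the others. The groups did not overlap, and the difference was -1.80 ± 0.31 (edgeR adjusted p = 0.024; not called without the whole KPC-3403 library). Lum (lumican) and Ogn (osteoglycin) had differences of -1.23 ± 0.23 and -2.20 ± 0.44 (edgeR adjusted p = 0.0091 and 0.022). The Lum call was lost without the enriched KPC-3403 library (edgeR adjusted p = 0.051) and that of Ogn without the whole KPC-3403 library (edgeR adjusted p = 0.053), while the single whole KPC-4545 cell had more Lum than the others there, at 10.9 against 2.27. Bgn, biglycan, went the other way, with 50.2, 52.9, 68.7 and 36.8 in contractile cells, against 29.6, 28.8, 15.2 and 31.7 in the others, a difference of 0.61 ± 0.16 (edgeR adjusted p = 0.046). The Bgn groups did not overlap, but its call was lost without the shared barcodes and without each of the 3 libraries. In all 1 of the 7 tested proteoglycan genes was higher and 3 were lower, with a median of -0.89, where 1.32% of all genes were higher and 2.86% lower. Without the whole KPC-3403 library 1 of the 4 calls was kept.

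Among matrix proteases and their inhibitors Timp3 rose and 3 proteases fell. Of 16 genes 14 were tested, 1 was higher and 3 were lower (Adamts5, Mmp19 and Mmp3), with a median of -0.26. Over all genes tested, 1.32% were higher and 2.86% lower. Timp3, a metalloprotease inhibitor that binds to the matrix, had 24.6, 29.2, 3.07 and 31.6 per 10000 in contractile cells, against 3.15, 12, 22.9 and 10.3 in the others. It was higher in the 3 fitted libraries (1.91 ± 0.28, edgeR adjusted p = 0.0065) and lower in the single whole KPC-4545 cell. Adamts5, an aggrecan-cleaving protease, had 0.612, 0.411, 0.342 and 0.139 in contractile cells, against 2.04, 1.81, 2.70 and 1.85, a difference of -2.30 ± 0.30 (edgeR adjusted p = 0.00088), with no overlap. Timp1 had 68.0, 60.9, 70.4 and 122 in contractile cells, against 33.6, 27.5, 17.9 and 21.0, and also did not overlap, yet it missed the threshold (1.55 ± 0.39, edgeR adjusted p = 0.15). Of the matricellular genes 14 were tested, with a median of 0.26, where 1.32% of all genes were higher and 2.86% lower. Ccn4 was higher (1.20 ± 0.25) and Thbs3 lower (-1.44 ± 0.34), with edgeR adjusted p = 0.015 and 0.029. Neither was called without the enriched or the whole KPC-3403 library. Postn, periostin, had 6.89, 3.44, 3.42 and 0.488 in contractile cells, against 6.13, 8.69, 0 and 1.88 (edgeR adjusted p = 0.14).

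The general or universal fibroblast list had the lowest median of the 14 gene lists. All of its 16 genes were tested, 13 were lower and none was higher, with a median of -2.52, where 2.86% of all genes were lower. All 13 were called without the shared barcodes, 12 without the enriched KPC-4545, 12 without the whole KPC-3403 and 8 without the enriched KPC-3403 library. Clec3b, which encodes tetranectin (chromosome 9, 123150946 to 123157432, plus strand), had 0 (enriched KPC-4545), 0.246 (enriched KPC-3403), 0.342 (whole KPC-4545) and 0 (whole KPC-3403) per 10000 in contractile cells, against 17.8, 7.79, 3.56 and 3.62 in the others. The members were far below the mixed reference in each library, and 3 UMIs would have given 0.459 and 0.209 in the sums at 0. The fitted difference was -5.53 ± 0.46 (edgeR adjusted p = 0.00028), which depends on the prior count, and within the enriched KPC-3403 library it was -4.97. Set against Saa3-high cells alone, the difference was -1.17 and did not pass (edgeR adjusted p = 0.712). Those cells were chosen with Pi16, Dpt and Clec3b together under 10 per 10000, so low Clec3b in them was partly set by that choice.

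The same pattern held for surface and secreted proteins of this list. Ly6a, the stem cell antigen Sca-1, had 1.68, 3.52, 1.37 and 1.88 per 10000 in contractile cells, against 30.2, 17.2, 12.4 and 13.4 (-2.93 ± 0.33, edgeR adjusted p = 0.0013), with no overlap. Cd34 had 0, 0.581, 0 and 0.209 in contractile cells, against 2.49, 2.60, 2.59 and 1.82 (-2.55 ± 0.36, edgeR adjusted p = 0.0013), and Gsn, gelsolin, had 2.45, 1.79, 1.37 and 1.11, against 22.9, 8.34, 2.92 and 4.52 (-2.47 ± 0.26, edgeR adjusted p = 0.00019). Pi16, a gene that names this kind of fibroblast, had 0.612, 0.851, 3.07 and 2.09 in contractile cells, against 8.94, 3.62, 1.19 and 1.41, lower in both enriched and higher in both whole libraries, and it did not pass (-1.61 ± 0.97, edgeR adjusted p = 0.63). Among the 12 largest falls, those outside the lists were Ifi207, Apod, Ptx3, Tnxb and Prg4. Apod, apolipoprotein D, had 0, 0.141, 0 and 0 in contractile cells, against 1.77, 2.31, 0 and 0.0771.

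Inflammatory fibroblast genes were lower or did not pass. Of 16, 15 were tested, 6 were lower and none was higher, with a median of -0.92, where 2.86% of all genes were lower, and 3 of the 6, Clec3b, Ly6c1 and Has1, are in the general fibroblast list as well. Cxcl12, the chemokine that binds CXCR4, had 0.612 (enriched KPC-4545), 3.06 (enriched KPC-3403), 0 (whole KPC-4545) and 1.46 (whole KPC-3403) per 10000 in contractile cells, against 4.78, 4.74, 0.324 and 4.73 in the others (-1.38 ± 0.33, edgeR adjusted p = 0.043; not called without the shared barcodes or the whole KPC-3403 library). The neutrophil attractants Cxcl1 and Cxcl5 had differences of -0.92 ± 0.22 and -2.35 ± 0.39 (edgeR adjusted p = 0.035 and 0.0041), and Cxcl1 was not called without the enriched KPC-3403 library (edgeR adjusted p = 0.39). Of the 6 calls, 5 were kept without the enriched KPC-4545 library or the shared barcodes, and 4 without the enriched or without the whole KPC-3403 library. Il6 had 0.612, 0.722, 0.342 and 3.41 in contractile cells, against 2.22, 1.22, 0.432 and 1.82, and did not pass (edgeR adjusted p = 0.84). Genes of antigen presentation gave no call among 6 tested, with a median of -0.19. This median depended on the reference. With cells of mesothelial marker UMIs left out of the reference and the same contractile cells, it was 2.09, in a fit of 3394 genes. Saa3, an acute-phase gene, had 12.7, 16.1, 0 and 60.1 in contractile cells, against 6.23, 47.4, 35.1 and 13.6, and went in different directions in different libraries; 1 whole KPC-3403 member alone stood at 341.

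Some glycolysis genes were higher, with calls that depended on the libraries fitted. Of 13 hypoxia and glycolysis genes 10 were tested, 5 were higher (Eno1, Pkm, Ldha, Ndufa4l2 and Slc2a1) and 1 was lower (Adm, adrenomedullin), with a median of 0.74, where 1.32% of all genes were higher and 2.86% lower. Of the 6 calls 4 were kept without the shared barcodes, 4 without the enriched KPC-4545, 1 (Adm) without the whole KPC-3403 and 0 without the enriched KPC-3403 library. Without that library the differences were no smaller for Eno1, Pkm, Ldha and Slc2a1. They were 1.06, 0.91, 1.11 and 1.35, against 0.96, 0.78, 0.86 and 1.01 with it. The difference of Ndufa4l2 fell from 1.17 to 0.86. Ndufa4l2 was lower in contractile cells of the enriched KPC-4545 library, at 0.306 against 0.542 per 10000, where 3 UMIs would have been 0.459. Pkm and Ldha also lost their calls without the enriched KPC-4545 library (edgeR adjusted p = 0.052 and 0.080). Ldha, lactate dehydrogenase A, had 14.5, 8.59, 7.86 and 14.5 per 10000 in contractile cells, against 5.22, 6.45, 11.3 and 8.53 in the others (0.86 ± 0.21, edgeR adjusted p = 0.035), and the glucose transporter gene Slc2a1 had 1.07, 0.698, 0.683 and 2.51, against 0.443, 0.428, 0.432 and 0.977 (1.01 ± 0.26, edgeR adjusted p = 0.044). Eno1 shares reads with a near-identical copy and is less certain. In the single whole KPC-4545 cell the summed list was lower than in the others, at 28.7 against 62.2.

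Immediate early genes, which respond within minutes to serum, stress and tissue dissociation, were in part lower in contractile cells. All 10 were tested and lay below 0, 3 were called lower (Zfp36, Junb and Egr1), none was higher, and the median was -0.78, where 2.86% of all genes were lower. Zfp36, an RNA-destabilising protein, had 5.82, 11.7, 6.83 and 5.23 per 10000 in contractile cells, against 13.4, 20.4, 0.432 and 12.3 in the others (-1.07 ± 0.18, edgeR adjusted p = 0.0060). The whole KPC-4545 cell went against the fitted libraries here, and Junb was not called without the whole KPC-3403 library, nor Egr1 without any 1 of the 3. Mitochondrial UMIs, a sign of cell quality, had medians of 1.91%, 2.02%, 1.98% and 2.67% in contractile cells and 3.35%, 2.18%, 5.20% and 2.45% in the others; their part was not tested.

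**Figure D3:**
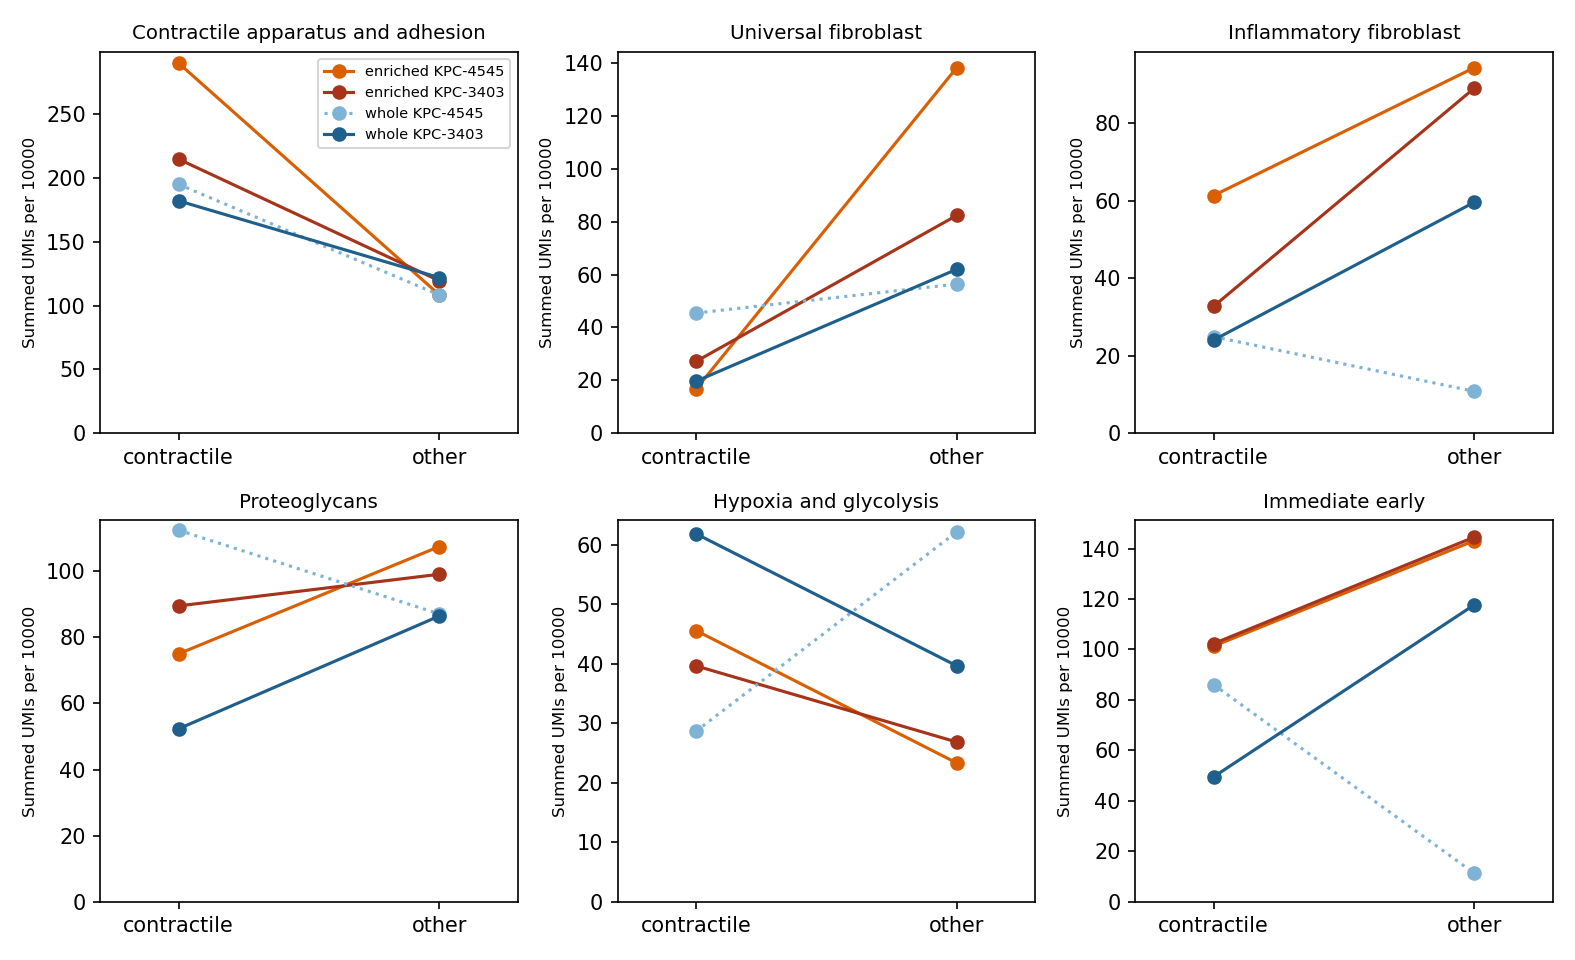
Summed UMIs per 10000 of 6 gene lists in contractile cells (left of each panel) and other collagen-positive cells (right), with 1 line for each library; the dotted line is the whole KPC-4545 library with 1 contractile cell. The contractile apparatus is higher and the universal fibroblast list lower in contractile cells of all 4 libraries, while the dotted line goes against the others for the inflammatory, proteoglycan, hypoxia and immediate early lists.

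The other collagen-positive cells are mixed, so the contractile cells were also set against 2 of their kinds, chosen after the data had been seen. Both kinds were limited to non-cycling cells with Acta2 and Tagln together under 20 per 10000. Universal-like cells, with Pi16, Dpt and Clec3b summing to at least 10 per 10000, numbered 22 (enriched KPC-4545), 230 (enriched KPC-3403), 2 (whole KPC-4545) and 12 (whole KPC-3403), and against them 113 of 2979 genes were higher (3.79%) and 207 lower (6.95%) over 3 libraries. Saa3-high cells, with Saa3 at 20 or more per 10000 and Pi16, Dpt and Clec3b together under 10, numbered 2, 161, 2 and 4. Against them 73 of 7460 genes were higher (0.979%) and 52 lower (0.697%) over the KPC-3403 libraries alone, with 1 residual degree of freedom. With only the cycling cells taken out of the reference, 72 of 4550 genes were higher (1.58%) and 197 lower (4.33%). The contractile sums are the same in all these comparisons. Of the contractile apparatus, 17 of 23 tested genes were higher than in universal-like cells and 7 of 24 higher than in Saa3-high cells, and none was lower in either. Since both kinds were chosen below the Acta2 and Tagln threshold, genes that vary with these differ partly by that choice. Of the universal fibroblast list, whose genes Dpt and Clec3b with Pi16 chose the universal-like cells, 15 of 16 were lower than in those cells. Against Saa3-high cells 1 of 13 was lower and 1 higher, with a median of -0.60, and Tnxb, outside the list, differed by -1.69 (edgeR adjusted p = 0.172). Low Pi16, Dpt and Clec3b were a condition for Saa3-high cells, so these differences too were partly set by the choice of reference.

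Genes differed in which reference set them apart. In the enriched KPC-3403 library Myl9 stood at 2.79 UMIs per 10000 in contractile cells, against 0.468 in universal-like and 0.281 in Saa3-high cells, and its log2 difference was 3.14 and 3.32 (edgeR adjusted p = 0.00368 and 1.57e-05). Ltbp2 differed by 3.89 and 2.96 (edgeR adjusted p = 0.000865 and 0.000374) and Tgfb1 by 2.39 and 2.31 (edgeR adjusted p = 0.00322 and 0.00678). Timp3 stood at 29.2 in contractile, 2.58 in universal-like and 21.6 in Saa3-high cells, with differences of 4.31 and 1.09 (edgeR adjusted p = 0.000906 and 0.334). Cthrc1 stood at 8.13 in contractile, 9.52 in universal-like and 0.370 in Saa3-high cells, and Tnc at 4.11, 1.09 and 0.200. Ly6c1, Thbs3, Col14a1, Ogn and Lum, lower than in all other cells, had differences of 0.56, 0.77, 0.46, 0.43 and 0.05 from Saa3-high cells, none past the threshold.

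Within the contractile cells the rest of the apparatus varied with Acta2 and Tagln. The 93 cells of the enriched KPC-3403 library were ordered by summed Acta2 and Tagln and parted in 3 sets of 31 cells, with medians of 25.4, 45.2 and 113 per 10000. The contractile apparatus list, which lacks both genes, summed to 171, 208 and 261 per 10000 from the lowest to the highest set. Myl9 stood at 1.43, 1.57 and 5.25, Cnn1 at 0.213, 0.663 and 1.71, the smooth muscle genes Des at 1.16, 1.81 and 3.25 and Actg2 at 0.0774, 0.381 and 1.06, and Ltbp2 at 1.08, 1.56 and 2.24. Median depths were 17040, 20645 and 19459 UMIs. These values describe cells of 1 library, and no test was made over cells.

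Other genes stood highest in the lowest set. The universal fibroblast list summed to 43.6, 19.7 and 20.3 per 10000, the inflammatory list to 41.9, 35.9 and 21.4 and the immediate early list to 121, 100 and 87.7, each from the lowest to the highest set. Ly6c1 stood at 1.90, 0.199 and 0.205, Sfrp4 at 1.90, 0.182 and 0.103, and Zfp36 at 15.4, 12.4 and 7.65. Ly6c1 was at 0 in 68 of the 93 members, so that few cells carried it, and Clec3b stood at 0.170 in the 15 members just inside the threshold, against 0.246 over all 93. Glycolysis peaked in the middle, with list sums of 31.7, 53.8 and 32.2, while Tnc at 4.32, 3.50 and 4.57 and Col12a1 at 4.76, 4.13 and 4.59 followed no order.

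**Figure D4:**
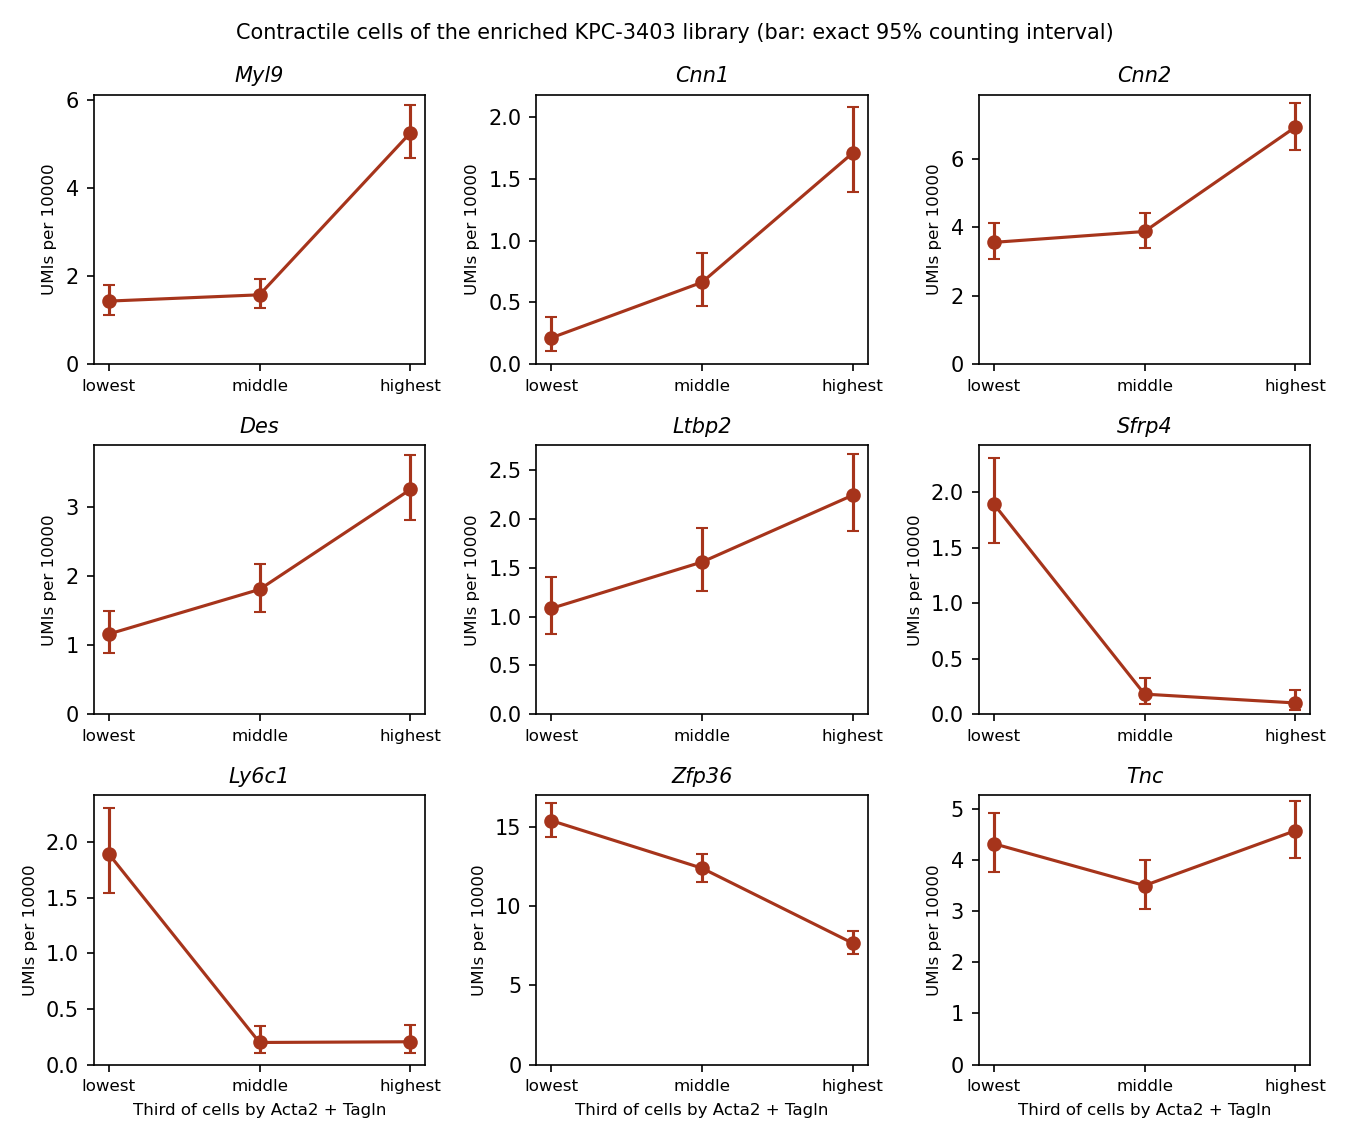
Levels of 9 genes in UMIs per 10000 in 3 equal sets of 31 contractile cells of the enriched KPC-3403 library, ordered by Acta2 and Tagln, with exact 95% counting intervals. Cnn1 stands at 0.213, 0.663 and 1.71, Ly6c1 at 1.90, 0.199 and 0.205, and Tnc shows no order.

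A comparison of contractile cells between preparations of 1 line, or between lines, was not made, because it required 20 contractile cells on both sides and the libraries other than the enriched KPC-3403 held 7, 1 and 5. Their values stand above library by library. Among the 4 deeper members of the enriched KPC-4545 library, with 4895 to 22328 UMIs, summed Acta2 and Tagln was 38.8, 83.7, 118 and 274 per 10000 and Myl9 4.09, 5.27, 8.96 and 8.33. The 5 members of the whole KPC-3403 library had 27.0, 29.0, 35.4, 67.8 and 141, with Myl9 at 3.16, 3.03, 0, 3.59 and 6.69 and Ltbp2 at 0, 0, 0.774, 7.18 and 3.34 in the same order. In both small libraries the cell with the highest Acta2 and Tagln also had the highest Cnn1, at 2.45 (enriched KPC-4545) and 1.67 (whole KPC-3403) per 10000. In the whole KPC-3403 library the next cells stood close, at 1.40 and 1.35, and such levels rest on few UMIs.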

How the data were processed

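The authors deposited UMI counts per gene and barcode for 4 libraries, as unfiltered matrices made with Cell Ranger on mm10, version 6.1.1 per the submitters' processing notes and version 4 per the file headers. UMIs are molecules, and intervals and floors here cover counting error only. Cells were barcodes of 500 or more UMIs and 250 or more genes whose mitochondrial UMIs did not exceed 20%. Scrublet doublet scores were tried as an alternative and no cell was removed in the main results. The sort and the collagen and Acta2 thresholds set the shares.

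Counts were summed per library and set and tested with edgeR 4.0.16 (R 4.3.3; quasi-likelihood, robust, TMM, filterByExpr), the library as a block, Benjamini-Hochberg adjusted, with calls at 0.05. A planned minimum of 20 cells per library and set left 1 library, so 4 cells was used, a choice made after the cell counts were seen. The replicate number is the tumour line, which pairs an enriched with a whole library. Levels are UMIs per 10000 of summed counts, and positive differences mean higher in contractile cells. On simulated counts for this comparison (5702 genes), 39 of 100 genes changed 2-fold and 91 of 100 changed 4-fold were recovered, with 1 false call. The simulation gave every gene the same dispersion, 0.0393, and drew sums rather than single cells. These numbers therefore hold for that setting and give no error rate for the real sums.

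Named genes were up to 12 per direction with the largest change among those past the threshold (mean of at least 20 CPM, same direction in each fitted library) and up to 4 passing members of each list, or the 2 most abundant where none passed. Further genes of the lists were named after their values were seen, and some named genes are not reported here. The members and the 14 lists were chosen with earlier results of these data known. Alternatives comprised DESeq2 1.42.0, other filters, thresholds, references and left-out libraries. Promoters came from RefSeq (GRCm38.p6). The CArG box searched is CC, 6 bases of A or T, then GG, on both strands.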

Additional observations from a re-analysis of the deposited data

Results flagged for a closer look

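In 3 genes the whole KPC-3403 library went in the opposite direction to both enriched libraries, and the difference between preparations was not tested. Serpinh1, the collagen chaperone gene, had a contractile minus other difference of 0.66 (enriched KPC-4545) and 0.37 (enriched KPC-3403) against -0.237 (whole KPC-3403) on the log2 scale. Wwtr1, which encodes the mechanosensitive cofactor TAZ, had 0.80 and 0.43 against -0.666. Cd74, the invariant chain of antigen presentation, had -1.42 and -0.25 against 0.409. None of the 3 passed the test across libraries.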

How the results depend on the processing

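Depth and the 5 and 7 contractile cells of the smaller fitted libraries limit these results. For the 56 named genes the difference kept its direction and its side of the threshold in 849 of 1061 refits, kept only its direction in 188 and turned in 24. The causes of the changes below were not tested.

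The share difference of -1.80 points turned to 3.54 with Acta2 and Tagln at 40 or more, and ran from -2.83 to -0.779 with 1 library left out. With the line as replicate block it was -1.80 by arithmetic (exact sign-flip p = 0.5, the smallest possible there). The fit used the block, and without the replicate block 16 genes were higher and 46 lower. Genes higher numbered 111 with the collagen threshold at 40, 37 with it at 160, 29 with cells thinned to 2000 UMIs, 113 against universal-like cells, 137 with no filter on low counts and 41 with DESeq2. They ran from 25 to 114 with 1 library left out. Genes lower numbered 80 with thinned cells, 52 against Saa3-high cells, 377 with no filter and 93 with DESeq2, and ran from 60 to 239 with 1 library left out.

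Turned differences were mostly of genes that did not pass in the main fit, though some of these genes passed in a refit. Tead1 was -0.099 with Acta2 and Tagln at 10, -0.286 with collagen at 160, -0.0529 without cells of other markers, -0.0706 thinned, -0.0382 against Saa3-high cells, -0.0262 with DESeq2 and -0.0682 without the replicate block, and it ran from -0.0978 to 0.238 with 1 library left out. Saa3 was -0.328 with collagen at 40, -0.0605 thinned and -1.63 against Saa3-high cells, which were chosen by this gene. It ran from -0.431 to 1.61 with 1 library left out, and the 1.61, without the enriched KPC-3403 library, passed (edgeR adjusted p = 0.0266). Cd74 was 0.106 with collagen at 160, 0.11 without cells of other markers, 2.54 against a reference without mesothelial-marker cells and 2.28 against universal-like cells, and ran from -0.362 to 0.121 with 1 library left out. Of these, the 2.54 passed (edgeR adjusted p = 0.00184). Against Saa3-high cells Ly6c1 was 0.562, Thbs3 0.772, Col14a1 0.456, Sfrp4 2.11, Ogn 0.426 and Lum 0.0459. Fits with Acta2 and Tagln at 40 or more, or with the range from 10 to 40 left out, were not run because too few cells remained.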

Other observations

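Some cells carried high Acta2 and Tagln without reaching the collagen threshold. In the enriched KPC-3403 library 34 non-cycling cells under 80 Col1a1 and Col3a1 UMIs per 10000 held 29.5 Acta2 and 26.2 Tagln per 10000, against 30.2 and 34.0 in the contractile cells. Their mesothelial genes summed to 7.85 against 1.66 and their epithelial genes to 4.91 against 0.487, with Krt8 at 1.53, while Dcn stood at 29.3 against 28.5. The pericyte gene Rgs5 was at 0 in these 34 cells.

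The 24 cycling cells of that library with the same Acta2 and Tagln level had 3.49 Myl9, 1.52 Cnn1 and 6.60 Tnc UMIs per 10000, against 2.79, 0.886 and 4.11 in the contractile cells. Ltbp2 stood at 0.464 against 1.65, Timp3 at 12.7 against 29.2 and Postn at 8.63 against 3.44. No test was made between these sets of cells of 1 library.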
